A study of Homo sapiens with 6 samples.

Results

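The genes described here encode ribosome biogenesis factors and nucleolar proteins, 49 in all, chosen by name for the step of ribosome production in which each protein works. Of these, 44 were measured among the 18372 genes tested. NOP56 and PPAN were found only on array rows that carry several gene names, and DDX18, EBNA1BP2 and GNL3 were not named in the array annotation used. The choice of genes used no measured value, although it was made with earlier results of these data known. HepG2 is a human hepatoma cell line. In the leaf-treated group, HepG2 cells had received a water extract of leaves of the plant B. racemosa at 50 µg/ml for 24 h, and the untreated group was HepG2 cells without extract. Each group held 3 arrays, labelled as biological replicates, hybridised to a whole-transcript gene expression array. All values are log2 expression values, and each gene is read from 1 probe set.

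Ribosomes are made mainly in the nucleolus. RNA polymerase I transcribes the ribosomal DNA into a long precursor RNA. Small nucleolar RNA–protein particles (snoRNPs) guide its chemical modification and part of its cleavage, and separate sets of assembly factors, helicases and GTPases then fold and trim the precursors of the small and large subunits. The genes of this programme are often expressed together in growing cells, and the transcription factor MYC is a known activator of many of them.

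Levels of the ribosome biogenesis genes were mostly lower on the leaf-treated arrays, by a small amount that did not pass correction for all genes tested. Of the 44 genes, 43 had a lower mean in leaf-treated cells and 1, BOP1, had a higher mean. Over all genes, 8577 of 18372 had a lower mean. The median log2 fold change was −0.31, against 0.011 over all genes. No gene passed limma's test at an adjusted p under 0.05 (their adjusted p ran from 0.21 to 0.92), in a comparison that called 0.00544% of all genes. At an unadjusted p under 0.05, 22 of the 44 were lower and 0 were higher, where 5.9% of all genes were lower and 3.83% were higher. In 22 of the 44, all leaf-treated arrays lay below all untreated arrays, and 0 had all leaf-treated arrays above, where 7.36% of all genes lay wholly below and 6.16% wholly above. Both descriptions held for 20 genes. Adding a fold change of at least 1.5 to the unadjusted p left NOC3L, UTP15 and DDX10, all lower, where 0.588% of all genes passed lower and 0.261% higher. Such bulk measurements cannot tell fewer cells expressing a gene from less RNA in each cell.

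**Figure D1:**
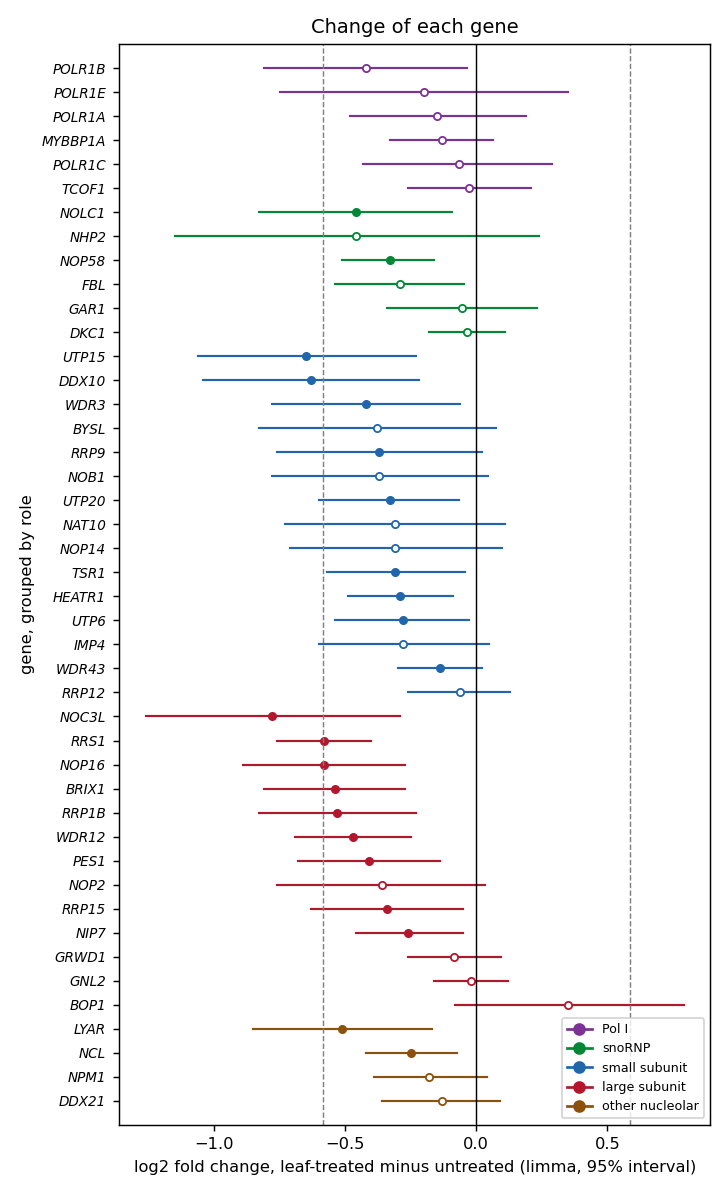
Log2 fold change (leaf-treated minus untreated) of each measured ribosome biogenesis gene, with its 95% confidence interval from limma, grouped by role. All points except BOP1 lie below 0, and the points run between −0.78 and 0.35.

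Genes of middle and high signal were on the whole lower on the leaf-treated arrays, whatever their function. The middle of the range of the ribosome biogenesis genes, which holds 22 of the 44, was a mean log2 value between 5.32 and 7.33, and the 2948 genes of all kinds in that range had a median log2 fold change of −0.10. Of the 2948, 2109 had a log2 fold change below 0. The 22 ribosome biogenesis genes there had a median of −0.36, and all 22 were below 0. Of these 22, 59.1% were lower at an unadjusted p under 0.05 and 54.5% lay wholly below the untreated arrays, where 14.7% and 15.9% of genes of like level did, and 1.93% of those passed the p and fold thresholds lower. The interquartile range of log2 values was 2.05, 2.29 and 2.03 on leaf-treated arrays 1, 2 and 3, and 2.3, 2.19 and 2.24 on untreated arrays 1, 2 and 3. Arrays 1 and 3 of the leaf-treated group thus had a narrower spread of signal than the other 4. After quantile normalization, which gives every array the same distribution, the median of the ribosome biogenesis genes was −0.20, with 39 below 0 and 5 above. The 5 were BOP1, TCOF1, POLR1C (0.047), GAR1 (0.043) and GNL2 (0.077), of which BOP1 alone was above 0 as deposited. After quantile normalization, 9182 of all 18372 genes and 1465 of the 2948 genes of like level were below 0. There, 19 of the 44 were lower at an unadjusted p under 0.05, where 5.42% of all genes and 9.53% of genes of like level were. The p and fold thresholds were passed lower by 1, where 0.425% of all genes passed them. With each array centred on its median instead, 7 passed them lower, where 0.996% of all genes did. The part of the narrower signal spread in the lower values was not tested beyond this.

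**Figure D2:**
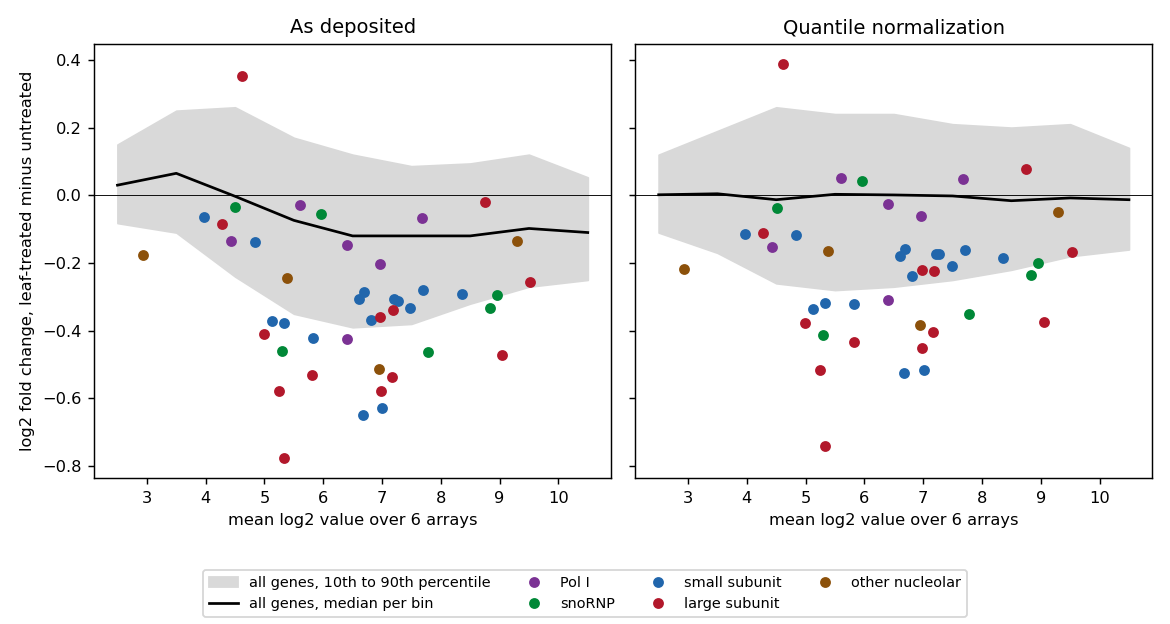
Log2 fold change (leaf-treated minus untreated) against mean log2 value over the 6 arrays, as deposited and after quantile normalization, with points for ribosome biogenesis genes coloured by role and a line and band for all genes. The median of all genes between log2 values of 6 and 7 lay at −0.12 as deposited, and the median of the ribosome biogenesis genes there at −0.36.

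As deposited, the leaf-treated arrays did not differ from the untreated ones to the same extent. Against the mean of the untreated arrays, the median shift of the 44 genes was −0.32 on leaf-treated array 1, −0.10 on array 2 and −0.42 on array 3, while the untreated arrays lay between −0.027 and 0.038. Leaf-treated array 2 was the highest of the leaf-treated arrays for 31 of the 44 genes (70.5%), and for 69.7% of all genes of like level and 36.4% of all genes, so that this order of the arrays is shared by genes of like level. On leaf-treated array 1, 35 genes (79.5%) were below the lowest untreated array, as were 58.1% of genes of like level and 30.2% of all genes. On array 2, 26 genes (59.1%) were, beside 22.3% of genes of like level and 22.4% of all genes. On array 3, 40 genes (90.9%) were, beside 64% of genes of like level and 32% of all genes. With leaf-treated array 1 left out, 13 of the 44 genes and 3.64% of all genes were lower at an unadjusted p under 0.05, and 1 of the 44 and 0.403% of all genes passed the p and fold thresholds. With array 3 left out, 14 of the 44 and 3.83% of all genes were lower. With array 2 left out, 30 of the 44 and 11.8% of all genes were lower, and 10 of the 44 and 1.69% of all genes passed both thresholds, so that the counts over all genes moved in the same direction. The count past both thresholds was 6 without untreated array 2 (0.784% of all genes) and 5 without untreated array 3 (0.637%). With leaf-treated array 2 as the sole treated array, the median was −0.10 (0.0023 over all genes). After quantile normalization, the median shifts were −0.19, −0.12 and −0.28 on leaf-treated arrays 1, 2 and 3. There, 77.3%, 75% and 84.1% of the 44 genes were below the lowest untreated array, beside 35.8%, 36% and 35.6% of genes of like level. Array 2 was then the highest leaf-treated array for 52.3% of the 44 and 32.6% of genes of like level.

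**Figure D3:**
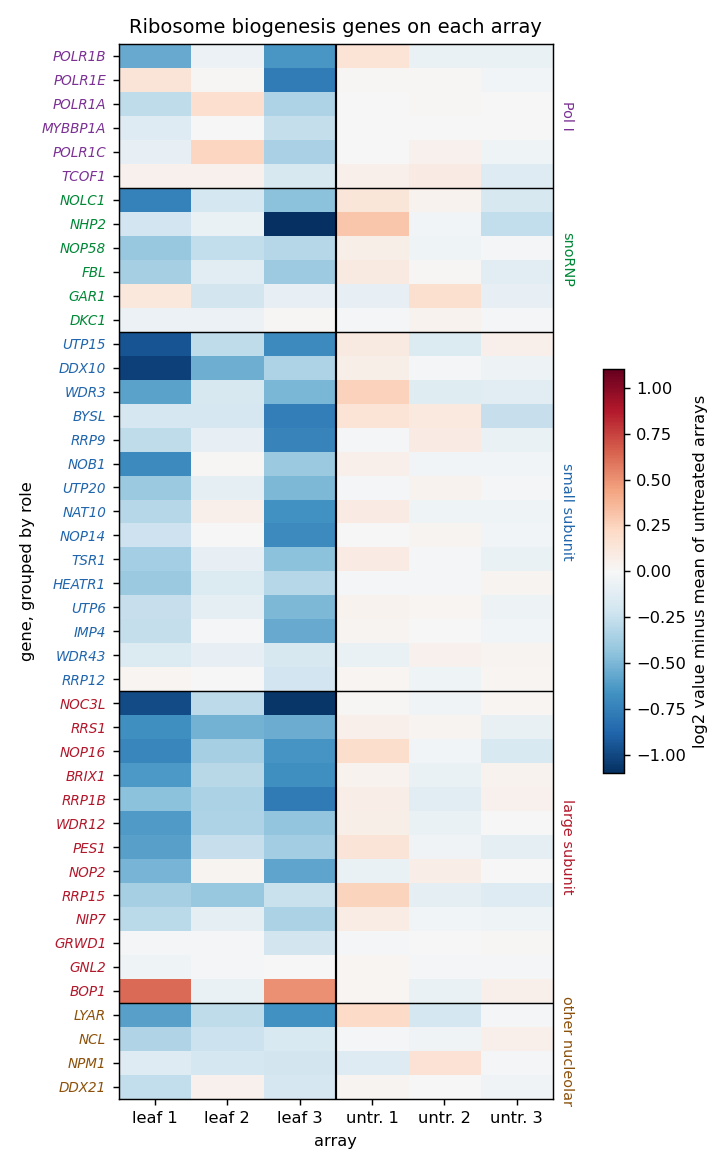
Log2 value of each ribosome biogenesis gene on each array minus the mean of its untreated arrays, with leaf-treated arrays to the left. As deposited, leaf-treated arrays 1 and 3 show the lower values, with medians of −0.32 and −0.42. Leaf-treated array 2 lies nearer to the untreated arrays, with a median of −0.10.

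Genes of RNA polymerase I and of ribosomal DNA transcription had the median nearest to 0 of the role groups. The median log2 fold change of these 6 genes was −0.14. Of the 6, 1 (16.7%) was lower at an unadjusted p under 0.05 and 0 lay wholly below the untreated arrays. Among all genes these shares were 5.9% and 7.36%, and among genes of like level 14.7% and 15.9%. With 6 genes, such counts cannot tell the group from genes of like level. POLR1B, which with POLR1A forms the catalytic core of the polymerase, had values of 6.05, 6.54 and 5.97 on the leaf-treated arrays, against 6.76, 6.53 and 6.53 on the untreated arrays. The groups overlapped through leaf-treated array 2, and the log2 fold change was −0.42 ± 0.16 (SE; limma adjusted p = 0.51). POLR1A had a log2 fold change of −0.15 and POLR1C, a subunit shared with RNA polymerase III, one of −0.067. MYBBP1A, a nucleolar protein that binds the factor MYB, had one of −0.13, with overlapping groups. POLR1E, a further subunit, averaged 6.86 ± 0.49 in leaf-treated cells and 7.07 ± 0.025 in untreated cells (SD, n = 3 each), with overlapping groups. TCOF1 encodes treacle, a nucleolar phosphoprotein that takes part in ribosomal DNA transcription and is mutated in Treacher Collins syndrome. It had 5.67, 5.67 and 5.45 on leaf-treated arrays and 5.68, 5.71 and 5.48 on untreated arrays, which is a difference of −0.029 ± 0.098 (SE). Its sign was not settled, since the log2 fold change was 0.051 after quantile normalization.

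Among the snoRNP proteins, those of the box C/D particles methylate ribosomal RNA, and those of the box H/ACA particles convert uridine to pseudouridine. FBL, the methyltransferase fibrillarin, averaged 8.81 ± 0.16 in leaf-treated cells and 9.10 ± 0.10 in untreated cells (SD, n = 3 each), with a log2 fold change of −0.29. NOP58, a core protein of the same particles, averaged 8.67 ± 0.079 in leaf-treated cells and 9.01 ± 0.057 in untreated cells, and its groups did not overlap. Of the H/ACA proteins, DKC1, the pseudouridine synthase dyskerin, had 4.46, 4.46 and 4.54 on the leaf-treated arrays, against 4.51, 4.56 and 4.50 on the untreated arrays. These groups overlapped, and the log2 fold change was −0.036 ± 0.062 (SE). GAR1 had a log2 fold change of −0.056. NHP2 had one of −0.46 with a standard error of 0.29, the largest spread of the 44 genes, and a further probe set of the gene gave −0.23. No test was made of the difference between the particle types. NOLC1, a chaperone of both kinds of particle, had 7.27, 7.82 and 7.56 on leaf-treated arrays and 8.15, 8.05 and 7.84 on untreated arrays. Its arrays did not overlap between groups, with a log2 fold change of −0.46 ± 0.15 (SE; limma adjusted p = 0.5).

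The 15 genes for small subunit assembly had a median log2 fold change of −0.31. In 9 of them all leaf-treated arrays lay below all untreated arrays. This held for 7.36% of all genes and 15.9% of genes of like level. At an unadjusted p under 0.05, 7 of the 15 were lower, where 5.9% of all genes and 14.7% of genes of like level were. UTP15 and DDX10 had the lowest log2 fold changes of the 15. UTP15, a subunit of the complex that first binds the nascent precursor RNA, had 6.05, 6.72 and 6.30 on leaf-treated arrays, against 7.10, 6.85 and 7.06 on untreated arrays. Its level was 1.57-fold lower in leaf-treated cells, with a log2 fold change of −0.65 and a 95% confidence interval of −1.06 to −0.23 (limma adjusted p = 0.44). HEATR1 and WDR43, of the same complex, had log2 fold changes of −0.29 and −0.14, and neither overlapped between groups. DDX10, an RNA helicase, had 6.30, 6.79 and 6.98 on leaf-treated arrays, against 7.39, 7.31 and 7.27 on untreated arrays. All leaf-treated arrays were lower, and the level was 1.55-fold lower (limma adjusted p = 0.44). WDR3 and UTP6, parts of a further early complex, had log2 fold changes of −0.42 and −0.28. UTP20 (−0.33), the late assembly factor TSR1 (−0.31) and RRP9 (−0.37), a protein of the U3 snoRNP, also lay wholly below the untreated arrays. NOB1, the nuclease that makes the last cut in small subunit RNA, had a log2 fold change of −0.37, and BYSL, IMP4, NOP14 and the RNA acetyltransferase NAT10 had values between −0.38 and −0.28, all with overlapping groups. RRP12, known from yeast for a role in export of the subunits, was the exception at 4.03, 4.0 and 3.80 on leaf-treated arrays and 4.03, 3.96 and 4.03 on untreated arrays, and its log2 fold change of −0.063 was 0.0095 without leaf-treated array 3.

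**Figure D4:**
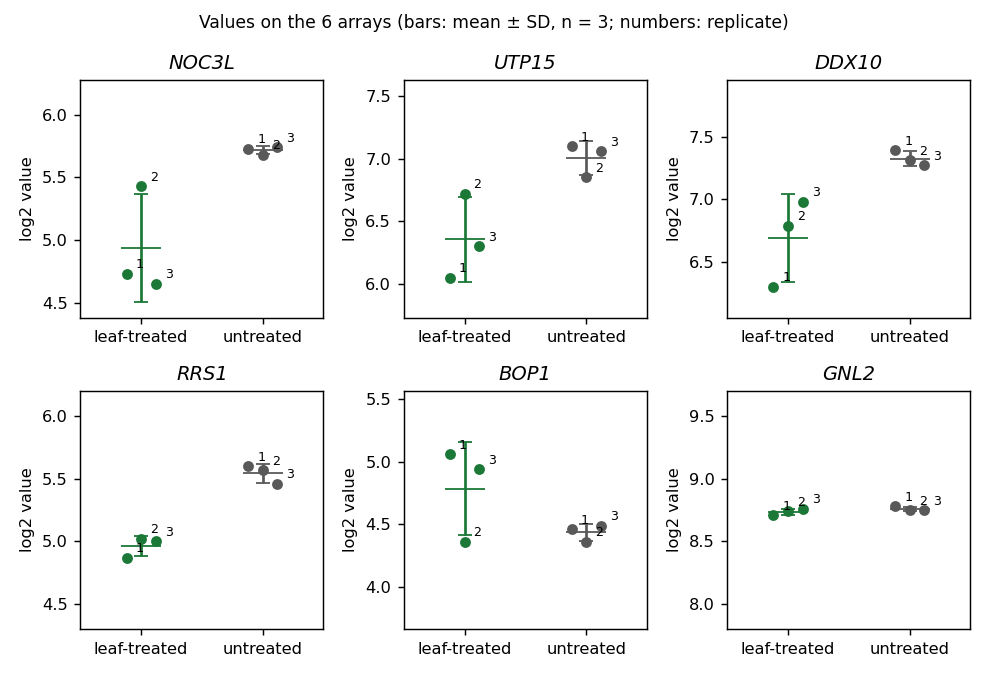
Log2 values of selected ribosome biogenesis genes on each of the 3 leaf-treated and 3 untreated arrays, with the group mean and its SD (n = 3 each). NOC3L, UTP15 and DDX10 do not overlap between groups, and BOP1 is higher on 2 of the leaf-treated arrays.

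Large subunit assembly showed the lowest median, −0.41 over 13 genes. Of these, 9 (69.2%) were lower at an unadjusted p under 0.05 and 9 lay wholly below the untreated arrays. The shares were 5.9% and 7.36% of all genes, and 14.7% and 15.9% of genes of like level to the 44. NOC3L, whose yeast counterpart acts in the movement of large subunit precursors out of the nucleolus, had the lowest log2 fold change of the 44 genes. It had 4.73, 5.43 and 4.65 on leaf-treated arrays, against 5.73, 5.68 and 5.74 on untreated arrays. Its level was 1.71-fold lower in leaf-treated cells, with a log2 fold change of −0.78 and a 95% confidence interval of −1.26 to −0.29 (limma adjusted p = 0.42). RRS1, which takes part in large subunit assembly and was picked out after its values were seen, had the least spread for its difference. It averaged 4.96 ± 0.079 in leaf-treated cells and 5.54 ± 0.076 in untreated cells (SD, n = 3 each), and its log2 fold change was −0.58 with an adjusted p of 0.21 by limma. NOP16 (−0.58), BRIX1 (−0.54) and RRP1B (−0.53) lay close to it, and RRP15 (−0.34) and NIP7 (−0.26) were nearer to 0, with no overlap in any of these 5 genes. NOP2, a methyltransferase of large subunit RNA, had a log2 fold change of −0.36 and GRWD1 one of −0.084, both with overlapping groups. GNL2, a nucleolar GTPase, averaged 8.74 ± 0.022 in leaf-treated cells and 8.76 ± 0.016 in untreated cells, with a 95% confidence interval of −0.16 to 0.12 around its log2 fold change of −0.021.

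PES1, BOP1 and WDR12 form the PeBoW complex, which is needed for maturation of large subunit RNA, and their values did not run the same way. WDR12 averaged 8.81 ± 0.14 in leaf-treated cells and 9.28 ± 0.068 in untreated cells (SD, n = 3 each), with a log2 fold change of −0.47. PES1 averaged 4.78 ± 0.18 in leaf-treated cells and 5.19 ± 0.12 in untreated cells, with a log2 fold change of −0.41. BOP1 had 5.06, 4.36 and 4.94 on leaf-treated arrays, against 4.46, 4.36 and 4.49 on untreated arrays. Leaf-treated arrays 1 and 3 were higher and array 2 equalled the lowest untreated array, so that the log2 fold change was 0.35 with a 95% confidence interval of −0.08 to 0.79 (limma adjusted p = 0.53). It was 0.22 without leaf-treated array 1 and 0.57 without leaf-treated array 2. A further probe set of BOP1 gave 0.22.

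Of the other nucleolar proteins, LYAR and nucleolin lay wholly below the untreated arrays and DDX21 did not. LYAR, a nucleolar protein linked to cell growth, had 6.61, 6.92 and 6.54 on leaf-treated arrays and 7.41, 7.01 and 7.19 on untreated arrays. No leaf-treated array reached the lowest untreated one, and the log2 fold change was −0.51 ± 0.14 (SE; limma adjusted p = 0.45). NCL, the abundant RNA-binding protein nucleolin, averaged 5.26 ± 0.083 in leaf-treated cells and 5.51 ± 0.049 in untreated cells (SD, n = 3 each). DDX21, an RNA helicase that acts in ribosomal RNA transcription and processing, had 9.10, 9.41 and 9.18 on leaf-treated arrays, against 9.40, 9.37 and 9.33 on untreated arrays. Its leaf-treated array 2 was the highest of all 6. The log2 fold change was −0.13, with −0.068 without leaf-treated array 1, −0.23 without leaf-treated array 2 and −0.048 after quantile normalization. NPM1, the histone chaperone nucleophosmin, is read from a probe set with values between 2.82 and 3.18. These lie under 3.28, the 95th percentile of 357 probe sets for olfactory receptors, which serve as genes not expected to be expressed in this line, and no difference can be read from them.

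The wider set of ribosome biogenesis genes, listed apart from the 49, also had mostly lower means, with smaller differences. Of 131 measured genes, 111 had a log2 fold change below 0 and 20 above, with a median of −0.18. Below 0 were also 2109 of the 2948 genes of like level to the 44, and 8577 of all 18372 genes. At an unadjusted p under 0.05, 39 (29.8%) were lower and 2 were higher, and 43 (32.8%) lay wholly below the untreated arrays, beside 5.9% and 7.36% of all genes and 14.7% and 15.9% of genes of like level to the 44. No gene passed limma's adjusted threshold, with 0.21 as the smallest adjusted p. MRTO4, a large subunit assembly factor, and NOL8, a nucleolar protein, passed the p and fold thresholds, with log2 fold changes of −0.77 (limma adjusted p = 0.43) and −0.61 (limma adjusted p = 0.21). EXOSC2, a subunit of the RNA exosome that trims precursor RNA, had a log2 fold change of −0.53. The 57 measured genes for cytoplasmic ribosomal proteins, the building blocks of the ribosome, had a median of −0.12, where genes of like level to the 44 had −0.10. Of the 57, 8 (14%) were lower at an unadjusted p under 0.05 and 15 (26.3%) lay wholly below the untreated arrays. Among genes of like level to the 44 these shares were 14.7% and 15.9%, and among all genes 5.9% and 7.36%. Genes of DNA replication and S phase had a median of −0.20 over 33 genes. Of these, 12 (36.4%) were lower at an unadjusted p under 0.05 and 18 (54.5%) lay wholly below the untreated arrays. The shares were 5.9% and 7.36% of all genes, and 14.7% and 15.9% of genes of like level to the 44. MYC itself had 7.63, 7.88 and 7.72 on leaf-treated arrays and 7.91, 7.86 and 7.90 on untreated arrays, with overlapping groups and a log2 fold change of −0.15 (limma adjusted p = 0.54). None of these lists was tested against another. The 9 measured hepatocyte and HepG2 markers had values between 7.61 and 11.29 on leaf-treated arrays and between 7.81 and 11.38 on untreated arrays. Markers of fibroblasts, leukocytes, endothelium and squamous cells were between 2.48 and 4.59 on leaf-treated arrays and between 2.35 and 4.21 on untreated arrays for 19 of 20 genes measured, the exception being LYZ, and 11 of the 20 were under the olfactory receptor limit. Their summed log2 value over the 20 genes was 70.3 to 74.5 on leaf-treated arrays and 69.7 to 71.1 on untreated arrays, and their part in the lower ribosome biogenesis values was not tested.

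Promoters of the ribosome biogenesis genes often held the E-box CACGTG, the DNA motif bound by MYC and related factors. The motif reads the same on both strands. It was searched in RefSeq promoter windows of 300 bases, 250 before to 50 after each gene's start, of build GRCh38.p14, which were found for 40 of the 49 genes. The motif was present in 18 of the 40 windows (45%), in 31 of 118 windows of the wider ribosome biogenesis genes (26.3%), in 13.6% of genes of like level and in 8.77% of all genes with a window. In 17 of the 40 it lay within 50 bases of the start (42.5%). The shares were 20.3% for the wider ribosome biogenesis genes, 6.23% for tested genes of like level and 3.51% for all genes with a window. Measured genes with the motif had a median log2 fold change of −0.31 (16 genes, 6 lying wholly below the untreated arrays), and those without it had −0.32 (20 genes, 12 lying wholly below). Among tested genes of like level, 63 of 337 with the motif and 332 of 2149 without it lay wholly below, with medians of −0.11 and −0.10. The windows below are those of the genes with the motif whose groups did not overlap, with GNL2 added as one that differed little. They are written 5′ to 3′ on the gene's strand, and capitals mark the E-box.
NOC3L: tagggacttcggCACGTGtgtcattccccg
LYAR: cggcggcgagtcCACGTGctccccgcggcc
RRP9: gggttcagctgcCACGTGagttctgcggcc
PES1: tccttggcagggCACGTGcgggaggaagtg
UTP20: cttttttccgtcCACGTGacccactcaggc
WDR43: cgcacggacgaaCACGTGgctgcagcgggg
GNL2: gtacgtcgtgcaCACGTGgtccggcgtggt
The motif began 20 bases after the start in NOC3L (chr10:94362903-94362932, minus strand), with a log2 fold change of −0.78. In PES1 (chr22:30591880-30591909, minus strand) it began 14 bases after the start. WDR43 (chr2:28894658-28894687, plus strand) and GNL2 (chr1:37595917-37595946, minus strand) both held it 4 bases after the start, and their log2 fold changes were −0.14 and −0.021. It stood before the start in LYAR (chr4:4290068-4290097, minus strand) and UTP20 (chr12:101280083-101280112, plus strand), and ran across the start in RRP9 (chr3:51941892-51941921, minus strand).

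**Figure D5:**
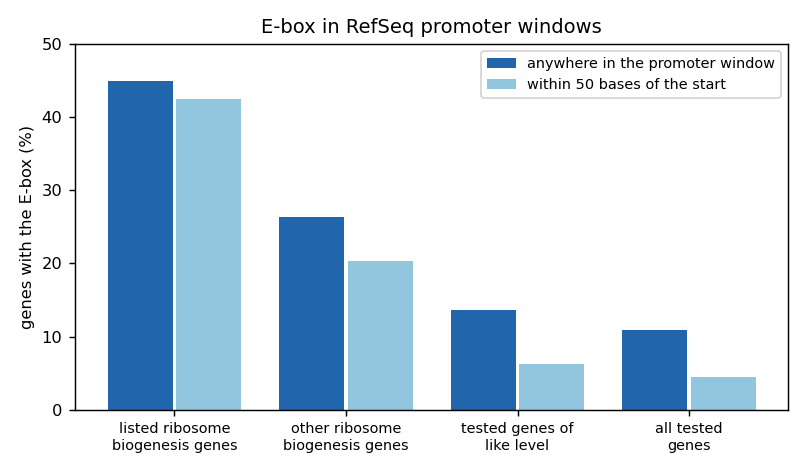
Share of promoter windows (percent) that hold the E-box, anywhere (dark bars) or within 50 bases of the start (light bars), by set of genes. The share anywhere was 45% for the ribosome biogenesis genes, 26.3% for the wider set, 13.6% for tested genes of like level and 10.9% for all tested genes.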

How the data were processed

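Log2 expression values were deposited by the authors as 1 table of 33297 rows over 6 arrays. Per the labels' processing notes, GCOS, Partek and RMA were used, with versions not given in the sources used here. Rows at 0 on all arrays (4468) were left out, as were 7803 unnamed rows and 1735 with several symbols, which left 19291 rows for 18372 genes. The model was fitted to all rows at once (limma 3.58.1, R 4.3.3), its p-values were adjusted by Benjamini-Hochberg, and each gene was read from its row of highest mean. The method was tested on simulated data. Nothing in the labels beyond "biological" describes separate cultures, and the spread that the p-values rest on may be technical, while 3 arrays a group limit precision. Of the tested rows, 41.1% held equal values on at least 2 arrays. The ribosome biogenesis genes and all lists were chosen with earlier results of these data known. Values on each array were given for genes past the p and fold thresholds and, in each role group, for the lowest and highest log2 fold change, and for MYC. Alternatives were quantile normalization, centring, array weights, analysis of variance, a replicate block and leaving out arrays.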

Additional observations from a re-analysis of the deposited data

How the results depend on the processing

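The median log2 fold change of the ribosome biogenesis genes stayed below 0 in every setting run. It lay between −0.41 and −0.22 when each array was left out in turn, and at −0.10 with leaf-treated replicates 1 and 3 both left out, a setting chosen after the data were seen, in which the spread comes from the untreated arrays alone. The count lower at an unadjusted p under 0.05, 22 as reported, was 13 to 30 with 1 array left out and 9 without leaf-treated replicates 1 and 3. Of all genes, 2.94% to 11.8% were lower with 1 array left out, with 3.64% in the setting with 13 and 11.8% in that with 30. The count higher, 0 as reported, was 0 to 1 with 1 array left out (8.2% of all genes where it was 1). With array weights the count higher was 1 (5.41% of all genes). The count lower past the p and fold thresholds, 3 as reported, was 7 with centring (0.996% of all genes) and 1 with quantile normalization (0.425%). It was 1 to 10 with 1 array left out, where 0.403% of all genes passed in the setting with 1 and 1.69% in that with 10. With 1 array left out, 22 to 33 of the 44 genes lay wholly below the untreated arrays, where 9.86% to 19.7% of all genes did. Those wholly above numbered 0 to 1, where 9.31% to 17% of all genes lay wholly above. No gene passed limma's adjusted threshold in the settings in which this was counted, which leave out at most 1 array. With 1 array left out, RRP12 lay between −0.11 and 0.0095 (without leaf-treated replicate 3), and TCOF1 between −0.10 and 0.043, with values of 0.043 without leaf-treated replicate 3, 0.00099 without untreated replicate 1 and 0.013 without untreated replicate 2. TCOF1 had 0.051 with quantile normalization. The cause was not tested. With the replicate number as a block, 25 genes were lower at an unadjusted p under 0.05 (4.94% of all genes). Deviations from the group mean correlated at −0.115, −0.177 and 0.121 between same-numbered arrays, and at −0.188 to 0.271 between the others. With 3 arrays a group, these values cannot settle whether same-numbered arrays share a culture or a day, and the labels give no pairing.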
